A study of Mus musculus with 19 samples.

Results

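Expression of 40 genes encoding RNA-binding regulators of alternative splicing was followed across the layers of mouse neocortex. The genes were chosen by name, as a hand-written list of known splicing regulators, and not by their values in these libraries. Earlier results of these data were, however, known when the list was made. All 40 matched a gene in the tables, out of 24130 genes listed in at least 1 library. They were divided by textbook knowledge into 15 neuron-enriched regulators (Rbfox1, Rbfox3, Nova1, Nova2, Ptbp2, Celf3 to Celf6, Elavl2 to Elavl4, Khdrbs2, Khdrbs3 and Srrm4), 2 glia- and precursor-enriched regulators (Qk and Ptbp1), 2 epithelial regulators (Esrp1 and Esrp2) and 21 broadly expressed factors. The material was polyadenylated RNA from the primary somatosensory cortex (S1) of 8 male C57BL/6J mice aged 56 days. The cortex was cut by eye under a microscope into 6 adjacent segments, so that a segment corresponds only roughly to its layer: A (mostly layers 1 to 3), B (mainly 4), C and D (the upper and the lower part of 5), E (mainly 6) and F (6b). Each of A, C, D, E and F was 1 library of RNA pooled from all 8 mice, and B was 2 libraries, B1 and B2, each pooled from the 4 mice of a litter. A further 12 samples, from dorsal and from lateral cortex, were not used here. Where values of all libraries of a gene are listed they run from the surface down, with B1 ahead of B2.

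Most mammalian genes with several exons yield more than 1 mRNA, and the choice is made by RNA-binding proteins that sit near exons and promote or prevent their use by the spliceosome. Rbfox, Nova, Celf, Elavl (Hu), Khdrbs (Sam68-like) and Srrm4 proteins control many of the exons that distinguish neuronal mRNAs. Ptbp1 represses neuronal exons in precursors and non-neuronal cells, and is replaced by its paralogue Ptbp2 during neuronal differentiation, while Qk (Quaking) is best known for its role in myelinating oligodendrocytes. SR proteins (Srsf and Tra2) mostly promote exon inclusion, and hnRNP proteins often oppose it.

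The depth estimated from the tables was 31.3 M mapped fragments in A, 41.6 M to 55.4 M in B1 and C to F, and 74.9 M in B2, so that A carried the fewest and B2 the most. The estimate takes reads of 50 nt in every library. It is less certain for F, part of whose reads were longer than those of the other libraries. Layer markers peaked where the labels place them: Cux2 was highest in B1 and second highest in A, Rorb in B2, Fezf2 in C, and Foxp2 and Ctgf in F. Markers of other cells varied along the same axis. The summed level of 12 oligodendrocyte markers went from 344 FPKM (fragments per kilobase of transcript and per M mapped fragments, with M for mega) in A to 13001.5 in F, 37.8-fold, with 12 of 12 markers highest in F, led by Mbp (172 FPKM in A and 6954 in F). The summed level of 7 meningeal markers was 43.6 FPKM in A against 4.69 to 7.75 in the other libraries. The 10 pan-neuronal markers, of which Rbfox3 is also a member, were together lowest in A (2556 FPKM) and highest in D (4721 FPKM), and no marker of these 3 lists was at 0 in any library. Mitochondrial genes took 21.8% of the summed FPKM in A and 18.2% in B2, against 5.03% to 9.79% elsewhere, which lowers the FPKM of every other gene in those libraries. Over all genes tested, the median slope from A to F was 0.09 on the log2 scale per segment step, or 0.46 over the 5 steps. Scaling by the median of ratios brought this median to 0.01, a shift of -0.40 over the 5 steps, and directions are therefore also given on that scale. The part of these differences in the results that follow was not tested, and in bulk tissue fewer cells of a type and less RNA per cell cannot be told apart.

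To ask which regulators were graded across the cortical depth, a linear and quadratic trend over the segments was fitted to log2(FPKM + 0.1) and judged by the moderated F-test of limma. A gene was tested if its widest deposited 95% interval spanned at most 50% of its mean FPKM, here called classifiable, a limit that 30 of the 40 members and 11409 genes in all passed. This test judges both terms together, and the direction given is the sign of the linear slope. An adjusted p printed beside a slope is thus that of the joint test and not of the slope alone. At an adjusted p of 0.05, 14 members had a trend. Of these, 12 rose toward the deep segments (Ptbp2, Elavl4, Khdrbs3, Qk, Ptbp1, Rbfox2, Mbnl2, Khdrbs1, Srsf6, Srsf7, Tra2a and Tial1) and 2 fell (Rbfox3 and Elavl3). Among all genes tested 43.5% were called, 35.5% rising and 8.06% falling, so that the number called among the members is near what the whole table shows. Their median slope was 0.14 per step, against 0.09 for all genes. Relative to the median of all genes, 17 of the 30 members had a higher slope and 13 a lower one, the former including 11 of 14 broad factors and 4 of 13 neuron-enriched regulators.

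The directions depended on the scale. By median of ratios 9 members rose and 3 fell, and after the GC content of transcripts was removed 4 rose and 6 fell (backgrounds of 19.1% and 13.1%, and of 15.1% and 15.5%). For 6 genes both the direction and the call were kept in all of these fits and when mitochondrial genes were left out of the scale. These were Rbfox3 and Elavl3 (falling) and Ptbp2, Qk, Ptbp1 and Mbnl2 (rising). With a linear term only (background 18.7%), however, Elavl3, Ptbp1 and Mbnl2 lost the call, as did Elavl4, Rbfox2, Khdrbs1 and Srsf6. Without library A, which leaves 6 libraries, 3 members were called, Ptbp2, Qk and Ptbp1 (background 10.1%), and without library F 12 were called (background 32.4%).

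**Figure D1:**
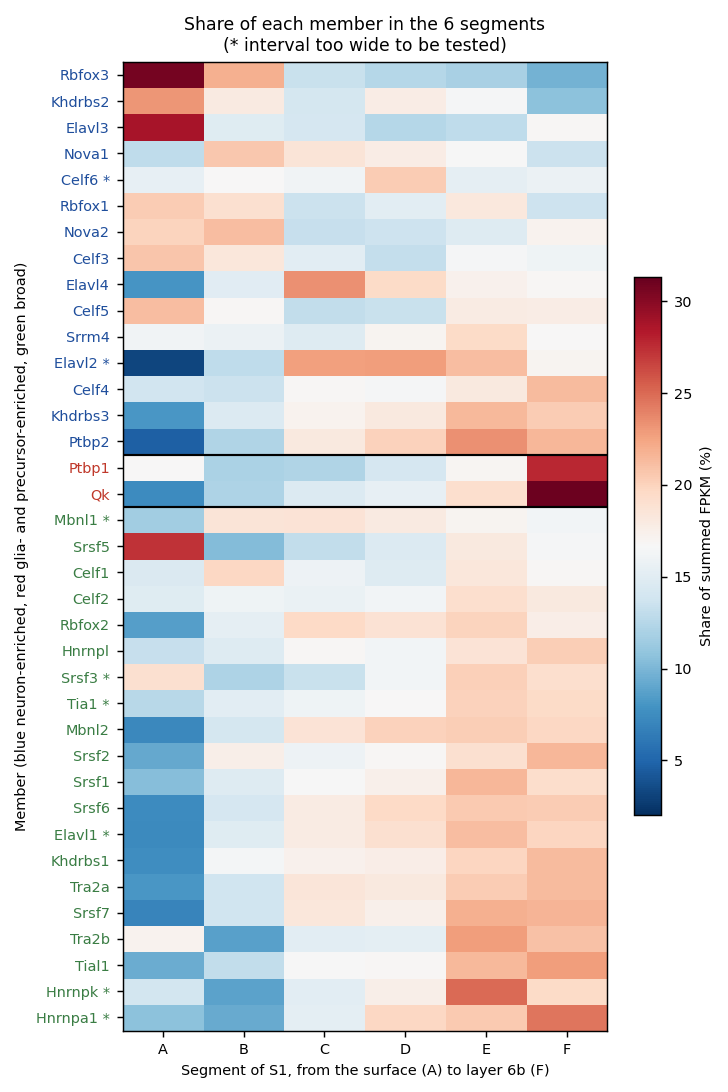
Share of the summed FPKM of the 6 segments (color scale, %) for the 37 members with a mean of at least 1 FPKM (rows), B1 and B2 being averaged. Most broad factors (green) have their lowest share in A, whereas Rbfox3, Elavl3 and Srsf5 have their highest share there and Qk and Ptbp1 in F. The gene value of Srsf5 leaves out at least part of its coding transcript Srsf5-201.

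The map of shares gives the distribution of each member over the segments. Each segment's share is its FPKM divided by the sum of the gene over the 6 segments. The 13 classifiable neuron-enriched members had a median of 19.96% of their expression in A and 32.6% in E and F together. For the 14 classifiable broad factors these medians were 9.27% in A and 40.7% in E and F, and for all classifiable genes 12.4% and 36.5%. Among neuron-enriched members 3 rose and 2 fell, with a median slope of -0.04, and among the broad factors 7 rose and 0 fell, with a median slope of 0.18. By median of ratios 2 neuron-enriched members rose and 3 fell, and 5 broad factors rose and 0 fell. After removal of GC content these counts were 1 and 5 for the neuron-enriched members and 1 and 1 for the broad factors. Counting all 40 members, 6 of 15 neuron-enriched genes and 1 of 21 broad factors (Srsf5) had their highest segment in A, compared with 23.7% of all genes that averaged 1 FPKM or more, whereas 15 of 21 broad factors had their lowest there, compared with 54.4% of those genes. The place of Srsf5 rests on a gene value that leaves out at least part of its coding transcript Srsf5-201, which was lowest in A. No test of the difference between classes was made.

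The Rbfox proteins bind UGCAUG elements and are the best-studied neuronal splicing regulators. Rbfox3 (the antigen of NeuN antibodies, chr11:118351074-118770886 in mm9) was the most abundant member on average, at 337, 263, 217, 147, 137, 130.2 and 107 FPKM. Its level thus decreased at each step from the surface to layer 6b, with B1 and B2 both between A and C. The 95% intervals of A and F did not overlap, whereas those of C, D and E overlapped each other. The fall was 0.32 on the log2 scale per step (SE 0.044, adjusted p = 0.00562), or 3.15-fold from A to F. Without A the slope was -0.28 and its adjusted p 0.0529. Rbfox2, its broadly expressed paralogue, went the other way: it was at 15.3, 30.3, 24.9, 35.1, 33.8, 35.8 and 31.7 FPKM. Its rise (slope 0.17, SE 0.044, adjusted p = 0.0163) was not called by median of ratios (adjusted p = 0.0707). Rbfox1 stood at 168, 158, 154, 111, 124, 150.0 and 112 FPKM, a pattern not called as a trend (adjusted p = 0.31) but called as falling after GC removal (slope -0.25, adjusted p = 0.0246). A ratio of 2 genes within a library is free of the scale of the library, and that of Rbfox3 to Rbfox2 was 22.0, 8.68, 8.70, 4.18, 4.05, 3.64 and 3.37. The B replicates were thus nearly equal in this ratio, which changed 6.53-fold from A to F. A ratio does not remove differences between libraries that follow GC content, which is 58.6% for Rbfox3 and 51.5% for Rbfox2. This pair and that of Ptbp2 and Ptbp1 were chosen after their values were seen.

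Elavl proteins bind AU-rich sequences and act on splicing, stability and translation of neuronal mRNAs. Elavl3 was at 114, 57.1, 61.5, 56.3, 49.6, 51.2 and 66.7 FPKM, so that A stood above all other libraries. Its fall (slope -0.11, SE 0.043, adjusted p = 0.0194) had a slope of 0.01 without A. With a linear term only, the adjusted p of Elavl3 in limma was 0.308. Elavl4 had the reverse profile, at 18.9, 35.6, 34.5, 54.9, 45.6, 40.5 and 39.5 FPKM. It peaked in upper layer 5 with a trend of 0.15 per step (SE 0.049, adjusted p = 0.0181), which turned to -0.03 once GC content was removed. Elavl2 was listed at 4.00, 14.1, 18.3, 28.4, 28.5, 26.5 and 21.3 FPKM. Its 7.12-fold range, highest in layer 5, was the widest of the members above 1 FPKM, but its intervals were too wide for the main test. In the limma fit of all genes averaging 1 FPKM or more its adjusted p was 0.00495. Elavl1 (HuR), the ubiquitous member of the family, was also too imprecise to be tested and was at 4.78, 8.97, 10.5, 11.6, 12.4, 13.8 and 12.9 FPKM.

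Khdrbs3 (SLM2), which selects neurexin exons, was at 43.2, 80.2, 76.6, 91.8, 96.7, 114 and 109 FPKM. All 6 libraries below the superficial segment were above A, and the rise of 0.22 per step (SE 0.043, adjusted p = 0.0106) lost its call by median of ratios (adjusted p = 0.0527) and after GC removal (adjusted p = 0.751). Its relative Khdrbs2 (SLM1) was low and had its highest value in A and its lowest in F, with 3.56, 2.92, 2.60, 2.16, 2.72, 2.53 and 1.64 FPKM. Its slope of -0.15 was not called (adjusted p = 0.135), although A and F did not overlap. With GC content removed it was called as falling (slope -0.33, adjusted p = 0.0236). Khdrbs1 (Sam68), a broad member of the family, was at 6.76, 17.1, 12.03, 15.4, 15.7, 17.6 and 18.9 FPKM. It rose by 0.21 per step (SE 0.063, adjusted p = 0.0459), and this call was kept in 5 of 16 alternatives.

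None of the remaining neuron-enriched regulators that could be tested was called on the deposited scale. After GC removal Nova1 was called with a negative slope (-0.22, adjusted p = 0.0118), and by median of ratios Celf5 was (-0.11, adjusted p = 0.0493). As deposited, neither descended steadily. Nova1 was at 11.3 FPKM in A, highest in B2 (20.2 FPKM) and at 11.8 FPKM in F. Celf5 was highest in A (73.3 FPKM), lowest in C (45.1 FPKM) and at 61.3 FPKM in F, and its slope without A was 0.03. Nova2, a neuronal KH-domain protein, was at 17.2, 25.4, 11.1, 11.5, 11.8, 12.8 and 14.8 FPKM. The replicates of layer 4 were thus its highest and its lowest library, 2.29-fold apart. Celf6 was also further apart between B1 (6.64 FPKM) and B2 (3.50 FPKM) than between any other libraries, with 4.71 FPKM in A and 4.90, 6.21, 4.67 and 4.803 in C to F. Nova1, Celf3, Celf5 and Srrm4, the activator of neuronal microexons, varied 1.32-fold to 1.62-fold between segments. Celf4, an abundant neuronal regulator with a mean of 148 FPKM, had its lowest segment mean in B (123 FPKM ± 7.09, SD, n = 2) and was highest in F (194 FPKM), 1.58-fold, and missed the threshold (adjusted p = 0.0585).

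**Figure D2:**
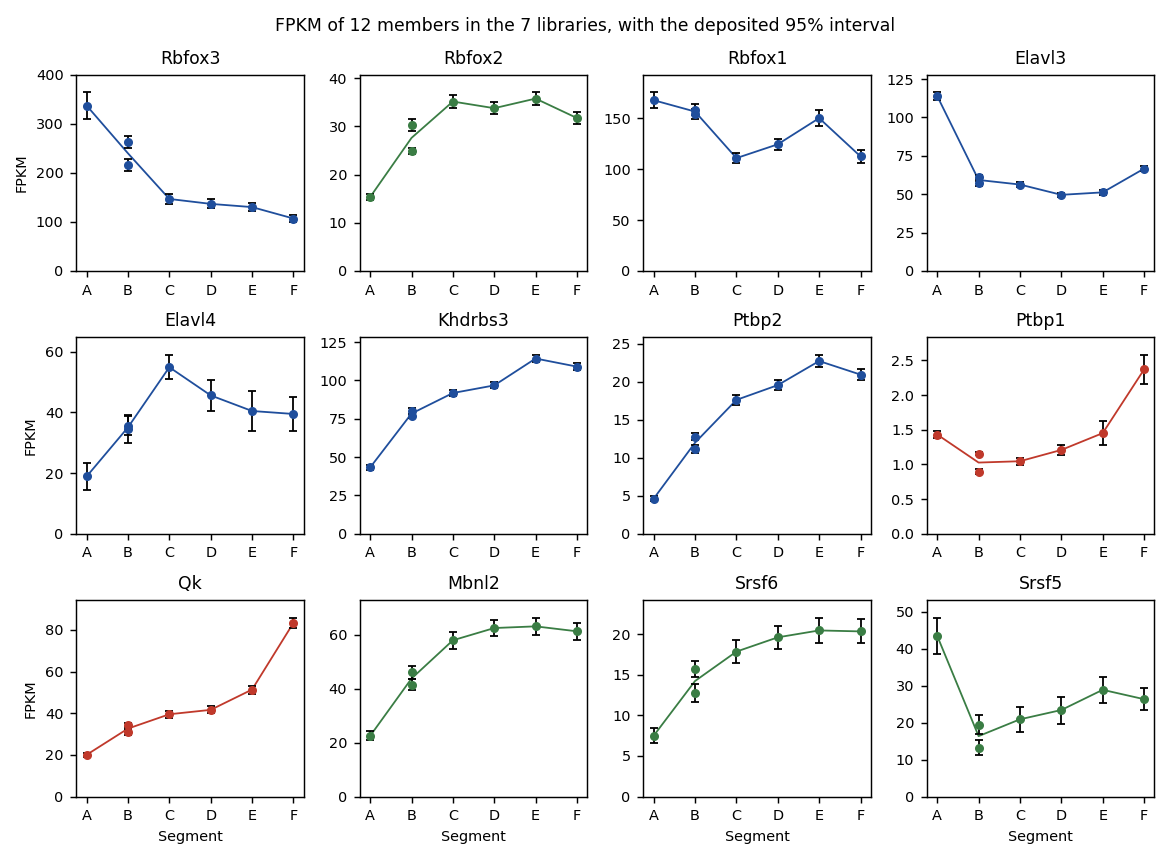
FPKM (y axis, linear and from 0) of 12 members by segment (x axis); points are the 7 libraries, bars the deposited 95% interval, and the line joins the segments through the mean of B1 and B2. Rbfox3 descends from 337 to 107 FPKM, Ptbp2 and Mbnl2 rise and level off in the deep segments, and Qk has its highest point in F at 83.4 FPKM.

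Ptbp2 (nPTB), the neuronal polypyrimidine tract binding protein, showed the steepest rise of the members tested. It was at 4.61, 11.2, 12.8, 17.6, 19.5, 22.7 and 20.9 FPKM (chr3:119421918-119486176 in mm9). Each segment from B to E exceeded the segment above it, and both B libraries lay between A and C. The slope was 0.37 (SE 0.047, adjusted p = 0.00411) and was called also by median of ratios (adjusted p = 0.00952), after GC removal (adjusted p = 0.0163) and without A (adjusted p = 0.0395). Its paralogue Ptbp1 was at a low level, with 1.43, 1.16, 0.897, 1.05, 1.21, 1.45 and 2.37 FPKM. Ptbp1 was lowest in layer 4 and highest in layer 6b (slope 0.16, SE 0.041, adjusted p = 0.0137), and without F its adjusted p was 0.215. Its transcripts do not sum to the value of the gene in the deposited tables, so that this low level is uncertain. The ratio of Ptbp2 to Ptbp1 was 3.23, 9.66, 14.3, 16.8, 16.2, 15.7 and 8.84. It was therefore lowest in the most superficial library and highest in layer 5, with a 1.48-fold difference between the replicates. The GC content of the 2 genes also differs, at 34.2% for Ptbp2 and 53.7% for Ptbp1.

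Qk was at 20.03, 30.9, 34.3, 39.5, 41.6, 51.4 and 83.4 FPKM (chr17:10401473-10512315 in mm9). It increased in every segment from the surface down, and its 4.16-fold range compared with a 1.11-fold difference between B1 and B2. The slope of 0.34 (SE 0.051, adjusted p = 0.00764) was called in 15 of 16 alternatives, the exception being the fit with 6 free segments. Of its expression 50.2% lay in E and F. The 12 oligodendrocyte markers moved in the same order over the 6 segments: their summed level was 344, 875, 890.3, 1716, 2298, 4268 and 13001.5 FPKM. The 4 markers of oligodendrocyte precursors were together at 7.12 FPKM in A and 83.0 in F, 11.7-fold, and 4 of 4 were highest in F. That sum was led by Sox10 (2.75 FPKM in A and 52.2 in F). Gpr17 went from 2.35 FPKM in A to 20.1 in F, Pdgfra from 1.00 to 8.05 and Cspg4 from 1.02 to 2.64. The summed level of 10 astrocyte markers changed 1.30-fold from A (745 FPKM) to F (971 FPKM), with 4 of 10 highest in F and 1 in A. This sum was led by Aldoc (421 FPKM in A and 296 in F) and hides differences between markers. Aqp4 went from 4.95 FPKM in A to 27.7 in F, and Gfap from 34.4 to 126. The part of oligodendrocyte or astrocyte content in the rise of Qk was not tested.

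Among the broad factors, Mbnl2 (muscleblind-like 2, which favors mature splicing patterns in brain) was the most abundant gene with a trend. It was at 22.5, 46.0, 41.5, 57.9, 62.5, 63.1 and 61.3 FPKM. The level rose up to lower layer 5 and then levelled off, with a slope of 0.24 (SE 0.041, adjusted p = 0.00629), and without A its adjusted p was 0.0818. The SR proteins Srsf6 and Srsf7 had similar courses at a lower level. Srsf6 was at 7.49, 12.7, 15.7, 17.8, 19.6, 20.4 and 20.3 FPKM (slope 0.24, SE 0.044, adjusted p = 0.00882). Srsf7 was at 4.87, 8.87, 10.5, 12.8, 12.2, 15.4 and 15.2 FPKM (slope 0.27, SE 0.049, adjusted p = 0.00937). In both, A was the lowest library and the replicates of B came next, and neither call was kept without A (adjusted p = 0.113 and 0.103) or after GC removal. Tra2a, a splicing activator related to SR proteins, was at 6.15, 9.04, 11.8, 14.0, 13.7, 15.4 and 16.1 FPKM. Tial1 (TIAR), which promotes weak 5′ splice sites, was at 6.71, 9.31, 9.39, 11.9, 12.05, 15.3 and 16.4 FPKM. They rose by 0.24 per step each (SE 0.046 and 0.037, adjusted p = 0.0125 and 0.00762), and both were again lowest in A. Without A their slopes were 0.16 and 0.20 (adjusted p = 0.141 and 0.0525). After GC removal the slopes of Tra2a and Tial1 were 0.07 and 0.04 (adjusted p = 0.203 and 0.137).

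Other SR proteins were uneven without a called trend. Srsf5 was listed at 43.5, 13.3, 19.5, 20.9, 23.4, 28.9 and 26.4 FPKM, with a slope of 0.02 (adjusted p = 0.371). This level is uncertain because of a near-identical copy and because the transcripts of the gene do not sum to its value. The coding transcript Srsf5-201 alone was at or above the gene value in every library but A. The gene value thus leaves out at least part of Srsf5-201. That transcript was at 10.9, 24.7, 22.3, 28.8, 29.9, 29.7 and 26.4 FPKM, lowest in A. Srsf1 was at 18.4, 20.7, 31.5, 29.4, 30.8, 38.1 and 34.0 FPKM (adjusted p = 0.0593). Srsf2 was at 14.6, 33.4, 22.3, 25.3, 26.8, 30.2 and 34.3 FPKM (adjusted p = 0.14), and without B1 it was called as rising (slope 0.21, adjusted p = 0.0105). For Srsf1 and Srsf2 the difference between B1 and B2 was 1.52-fold and 1.499-fold, against ranges of 2.07-fold and 2.35-fold between segments. The transcripts of Srsf2 do not sum to its gene value, so that the difference between its replicates is uncertain. Its classifiable transcripts were higher in B2. Srsf2-201 was at 13.5 FPKM in B1 and 16.0 in B2, and Srsf2-203 at 3.52 and 6.31. Srsf3, which was too imprecise to be tested, was at 8.46, 4.21, 6.66, 5.98, 7.24, 8.98 and 8.52 FPKM. Tia1, also not tested, was at 9.27, 8.79, 13.4, 11.8, 12.3, 14.7 and 14.3 FPKM. Hnrnpl, Celf1, Celf2 and Mbnl1 varied 1.28-fold to 1.61-fold between segments. Use of strand in the counting is not given in the sources used here, and 13 members overlap another listed gene, among them Srsf2 (Mfsd11), Hnrnpk (Rmi1) and Srrm4 (Srrm4os). Of the members with a called trend, Rbfox2, Mbnl2 and Tra2a overlap another listed gene. Overlap was judged on whole gene spans, introns included. Whether reads of such neighbors were counted with those of the member was not examined.

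Near-identical copies make a further group of levels uncertain. There are 9 members with at least 1 other annotated gene whose transcript matches theirs at 90% identity or more over at least 500 nt, counting pseudogenes. Hnrnpa1 has 14 such pseudogenes and was at 2.51, 1.70, 2.65, 3.57, 4.63, 4.81 and 5.74 FPKM, a low level for a core hnRNP protein, while 6 of the copies were themselves listed with a summed mean of 8.46 FPKM. Hnrnpk was at 9.66, 4.31, 7.87, 10.4, 12.1, 17.2 and 13.5 FPKM, and a listed pseudogene copy of it was at a mean of 34.7 FPKM. Tra2b, with 4 pseudogenes, was at 1.89, 0.608, 1.30, 1.66, 1.67, 2.49 and 2.29 FPKM, while 3 listed copies summed to 9.40 FPKM. Srsf5 has a listed pseudogene copy at 74.7 FPKM, above its own mean of 25.1 FPKM. Ptbp1 and Srsf7 have 1 such pseudogene each, neither of them listed. For Hnrnpa1, Hnrnpk, Tra2b and Srsf5 the split of reads between gene and copy cannot be seen in the tables, so that the order of their segments, including the high value of Srsf5 in A, is uncertain. The gene value of Srsf5 also leaves out at least part of Srsf5-201.

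The epithelial regulators Esrp1 and Esrp2 had means of 0.027 and 0.0167 FPKM and Mbnl3 a mean of 0.0401 FPKM. Esrp1 was listed at 0 in A and at no more than 0.105 FPKM elsewhere, and Mbnl3 was listed at 0 in E and at no more than 0.132 FPKM. Their levels are too low for a comparison, including that of Esrp2, whose intervals passed the limit.

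**Figure D3:**
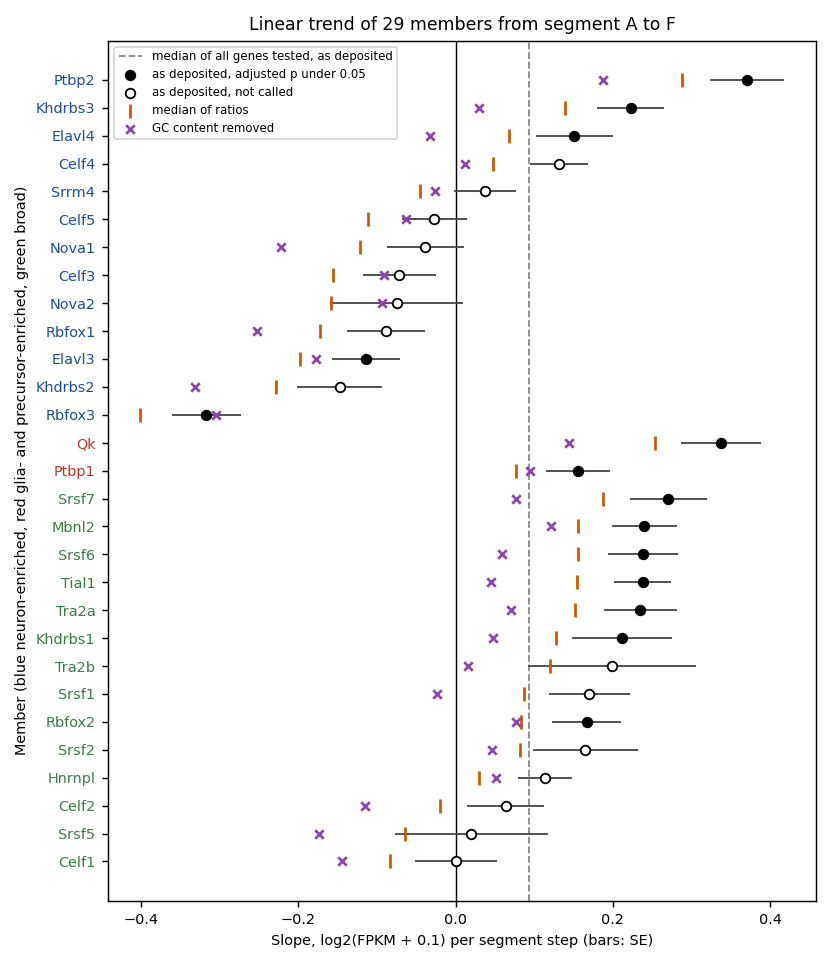
Slope per segment step on the log2(FPKM + 0.1) scale (x axis, bars SE) of the 29 classifiable members above 1 FPKM, by class; filled circles passed an adjusted p of 0.05, and ticks and crosses give the slope by median of ratios and after removal of GC content. All 14 broad factors have a slope above 0 as deposited and a lower one by median of ratios, whereas Rbfox3 is far below 0 and Ptbp2 above it in all 3.

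Individual pairs of segments were compared by the deposited 95% intervals, which hold counting and assignment error but no variation between mice. Between A and F, 17 classifiable members were higher in F and 9 higher in A by nonoverlapping intervals (backgrounds of 60.8% and 24.4% of classifiable genes), and Nova1, Srrm4, Celf1 and Tra2b overlapped. Between the adjacent deep segments E and F, 6 were higher in F (Nova2, Celf4, Elavl3, Qk, Ptbp1 and Srsf2) and 8 higher in E, among them Rbfox1, Rbfox3, Ptbp2 and Khdrbs3 (backgrounds of 28.7% and 25%). Between upper and lower layer 5 the intervals overlapped for 22 of 30 members, and 8 were apart, against 34.3% of all genes. These counts must be read beside the replicates, since 21 of 30 members were apart between B1 and B2 as well (background 66.4%), 12 higher in B2 and 9 higher in B1 (32.1% and 34.3%).

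A stricter reading asks for a level beyond both replicates of layer 4. Segment A was below both for 15 members and above both for 6 (Rbfox3, Celf5, Elavl3, Ptbp1, Srsf5 and Tra2b), with backgrounds of 42.6% and 20.2%. The levels of Ptbp1, Srsf5 and Tra2b are uncertain, as given above. Segment F was above both for 14 members and below both for 5 (Rbfox1, Rbfox3, Nova1, Khdrbs2 and Esrp2, the last at a level too low to be read), with backgrounds of 42.4% and 13.6%. For E these were 15 and 4 members, with backgrounds of 39.5% and 11.5%. Of the 37 members with a mean of at least 1 FPKM, 34 varied more between the 6 segments than between B1 and B2, and the exceptions were Nova2, Celf6 and Celf2 (background 88.9%). A range over 6 segments tends to exceed the fold between B1 and B2 even without differences between segments. This count therefore cannot show such differences.

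The ratio of B2 to B1 describes how far these 2 libraries of the same segment differed. Litter, preparation and other differences between them cannot be told apart. Among the 37 members the median fold between replicates was 1.22, against 1.24 for all genes of that level, and 20 were higher in B2 and 17 higher in B1. At least 1.5-fold apart were 8, Nova2 (B2 to B1 ratio 0.437) and Celf6 (0.527) lower in B2, and Srsf1 (1.52), Tia1 (1.53), Hnrnpa1 (1.56), Srsf3 (1.58), Hnrnpk (1.82) and Tra2b (2.14) higher in B2. Of all genes 23.7% reached this fold. The ratio followed base composition: across 29 members it fell with the GC content of the longest transcript (Spearman's rho = -0.61), as it did across 10627 classifiable genes (rho = -0.55). Genes are not independent replicates, and these coefficients only describe the 2 libraries. The slope over the segments also fell with GC content (rho = -0.41 across the 29 members and -0.38 across 10801 genes). Median GC content was 42.2% for the 12 members that rose and 46.6% for the 15 not called, while Rbfox3 and Elavl3, which fell, have 58.6% and 54.1%.

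**Figure D4:**
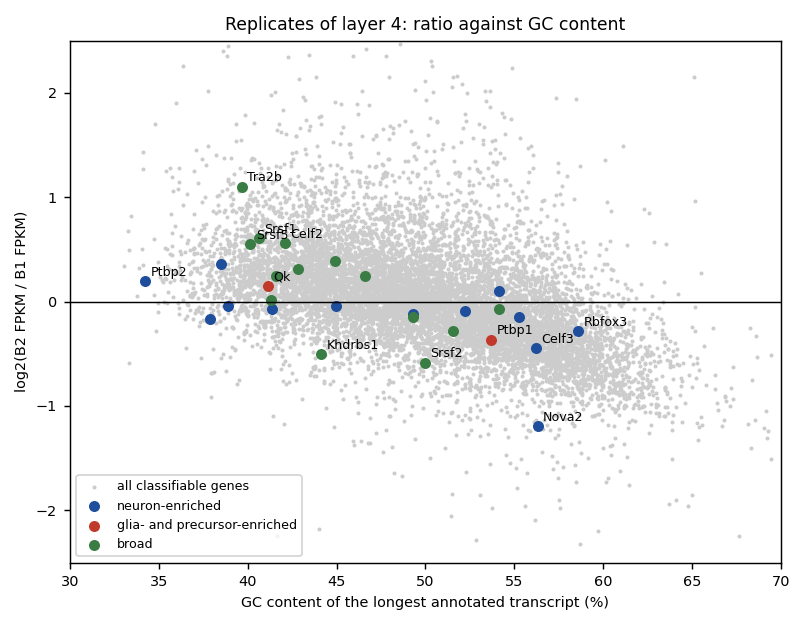
log2 ratio of B2 to B1 (y axis) against the GC content of the longest annotated transcript (x axis, %), for all classifiable genes (gray) and the 29 classifiable members above 1 FPKM (colored by class). Members with low GC content such as Tra2b and Srsf1 lie above 0 and those with high GC content such as Nova2, Celf3 and Rbfox3 below it.

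Beyond the members, 81 further genes of the splicing machinery were examined in 4 hand-written lists, of which 79 were listed and 67 classifiable. In all, 22 rose and 4 fell (11 and 6 by median of ratios, 4 and 12 after GC removal), beside the 35.5% rising and 8.06% falling among all genes (19.1% and 13.1%, and 15.1% and 15.5%, under the alternatives). Of 23 tested hnRNP and related proteins 12 rose and 0 fell, against 6 and 1 by median of ratios and 1 and 3 after GC removal. They were led by Hnrnpll (slope 0.40, SE 0.055, adjusted p = 0.00464), a regulator of CD45 splicing in T cells that went from 3.44 FPKM in A to 18.3 in F, and Hnrnph2 (slope 0.31, SE 0.055, adjusted p = 0.00645), a binder of G runs at 13.3 FPKM in A and 53.0 in F. Of 12 tested SR and SR-related proteins 2 rose, Srsf12 (slope 0.31, adjusted p = 0.00616) and Srsf4 (slope 0.18, adjusted p = 0.0401). The list had 3 that fell (4 by median of ratios with 1 rising, 6 after GC removal with 0 rising), among them Srsf11 and Srrm3, a relative of Srrm4 that also acts on microexons. Srrm3 was at 54.5, 30.8, 31.6, 21.5, 18.2, 19.7 and 16.9 FPKM, a fall of 0.30 per step (SE 0.040, adjusted p = 0.00483), with both B libraries between A and C. Srsf11 fell by 0.34 per step (SE 0.095, adjusted p = 0.0261) but was at 51.7 FPKM in B1 and 128 in B2. Among 25 tested components of the core spliceosome 6 rose, led by Sf3b3 (slope 0.29) and Prpf8 (slope 0.28), and Snrnp70 of the U1 particle fell (slope -0.13, adjusted p = 0.0284). Of 7 tested kinases of splicing factors, Dyrk1a (slope 0.24, adjusted p = 0.0144) and Hipk2 (slope 0.22, adjusted p = 0.0191) rose. By median of ratios 3 core components and 1 kinase rose, and after GC removal 2 and 1. Without A, 5 of these 67 genes were called (background 10.1%).

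Splicing regulators are themselves spliced into alternative forms, and several SR proteins limit their own level through an exon with a premature stop codon that sends the mRNA to nonsense-mediated decay (NMD). Transcript-level FPKM were compared with the criterion that 1 transcript of a gene is higher in the first library of a pair and another higher in the second, each by nonoverlapping intervals. Of 16 members with at least 2 classifiable transcripts, 15 met it in some pair, beside 81.2% of 1697 genes, and this counts Esrp2 at its very low level. However, 9 of the 16 met it between B1 and B2 (background 37.7%), and 13 in another pair (background 78.6%). In other pairs but not between the replicates it was met by 6, Celf4, Elavl4, Qk, Srsf1, Srsf3 and Srsf6. The share of all genes with this combination was not taken, so the count is not read as a result about the members. For 9 members a single transcript was listed, Rbfox1 showed opposed transcripts in 12 of 21 pairs including the replicates, and Celf1 met the criterion in none.

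In Srsf6 the forms were opposed in 4 pairs, each with F. Its transcript Srsf6-201, annotated as a target of NMD, contains an exon that is absent from the coding transcript Srsf6-203. The part of this exon up to its stop codon (capitals) is shown (GENCODE M21 transcript, GRCm38, chr2:162932815-162932966, plus strand, 152 nt). It is not all that separates the forms, since Srsf6-201 is the shorter model, at 1666 nt against 3527 nt for Srsf6-203. The share of each form may therefore turn on other sequence too.

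Srsf6-201 exon: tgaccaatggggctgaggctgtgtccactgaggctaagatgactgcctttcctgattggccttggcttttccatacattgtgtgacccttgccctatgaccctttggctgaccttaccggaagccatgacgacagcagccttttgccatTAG

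The share of Srsf6-201 in the FPKM of the gene was 25.7%, 34.5%, 25.8%, 34.1%, 33.6%, 36.5% and 54.2%. Layer 6b thus stood apart from the other 6 libraries, which lay between 25.7% and 36.5%. In FPKM, Srsf6-201 went from 7.47 in E to 11.0 in F while Srsf6-203 went from 12.98 to 9.31, and the forms were opposed between F and each of B2, C, D and E. The estimate for a short transcript that shares most exons with a longer one rests on the assignment of reads by cufflinks, and F is 1 library, part of whose reads were longer than those of the other libraries. Insert sizes also differed between libraries, being longest in B1. The part of read length and insert size in these results was not tested.

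Among the classifiable transcripts of these 6 members the largest change of a share from A to F was in Qk, 40.4 points. Its transcript ENSMUST00000115697, which has no M21 entry under this identifier, took 5.43%, 44.6%, 49.3%, 40.1%, 43.5%, 45.4% and 45.8% of the FPKM of the gene. Qk-201 held 69.9% in A and 29.7% to 37.1% in the others, and Qk-202, annotated as an NMD target, 16.9% to 26.6% throughout. Library A alone stood apart here, and the forms were opposed between A and each of B1 and B2. In FPKM, Qk-201 was at 14.0 in A and 24.7 in F, whereas ENSMUST00000115697 was at 1.09 in A and 38.2 in F.

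In the other members with the largest changes the replicates differed too. Celf5-201 took 25.6%, 61.8%, 34.7%, 53.6%, 61.5%, 57.9% and 57.5% of Celf5, so that B2 resembled A and B1 the deep segments. Celf5-202 lacks the first 2 coding exons of Celf5-201, which encode the start of the protein, and the first of these is shown (GRCm38, chr10:81482461-81482605, minus strand, 145 nt, start codon first). The other is 83 nt long, and the models are 4391 nt for Celf5-201 and 4166 nt for Celf5-202. The share of each form may therefore turn on sequence other than the exon shown.

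Celf5-201 first coding exon: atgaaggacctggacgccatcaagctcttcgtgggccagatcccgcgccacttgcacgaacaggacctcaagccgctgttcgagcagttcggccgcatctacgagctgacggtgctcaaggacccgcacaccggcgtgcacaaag

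Khdrbs1-202, annotated as an NMD target, took 19.0%, 77.0%, 31.9%, 58.8%, 44.4%, 49.0% and 66.6% of Khdrbs1, and a change of 47.6 points from A to F thus compares with 45.1 points between the replicates. For Mbnl2 (ENSMUST00000022738) the change from A to F was 32.2 points and that between B1 and B2 was 13.9 points, and for Celf2-211 these were 23.9 and 12.9 points. Srsf1-201 changed by 24.3 points from A to F and 17.2 between B1 and B2, while the NMD form Srsf1-204, too imprecise to be classifiable, went from 51.7% in A to not being listed in F.

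Rbfox3-203 held 58.6%, 22.8%, 50.1%, 43.6%, 35.4%, 40.3% and 37.5% of Rbfox3. The change of 21.1 points from A to F was smaller than that of 27.2 points between the replicates. Rbfox3-205 has a longer exon, though the lengths of the models (3084 nt, and 2809 nt for Rbfox3-203) differ by more than this. The additional 141 nt of the exon keep the reading frame and are shown because the NeuN protein exists in forms with and without such a stretch (GRCm38, chr11:118496391-118496531, minus strand).

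Rbfox3-205 additional stretch: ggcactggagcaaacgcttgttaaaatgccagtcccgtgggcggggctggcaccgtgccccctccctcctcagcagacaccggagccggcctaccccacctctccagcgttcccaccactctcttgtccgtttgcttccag

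Rbfox3-205 was at 25.1%, 6.37%, 19.2%, 35.9%, 23.6%, 43.9% and 31.6%, with intervals too wide for it to be classifiable. Rbfox3-201, only 3.67% to 4.39% of the gene, fell from 12.4 FPKM in A to 4.70 in F, with 10.5 in B1 and 7.97 in B2. Rbfox3-203 went from 197.8 FPKM in A to 40.1 in F. Rbfox3-205 and ENSMUST00000106279, which was not classifiable either, were also lower in F than in A but did not descend steadily. Rbfox3-205 was at 84.6 FPKM in A, 16.8 in B1, 57.1 in E and 33.8 in F. ENSMUST00000106279 was at 42.5 FPKM in A, 175.9 in B1, 58.5 in B2 and 28.3 in F. It held 66.8% of the gene in B1 and 27.04% in B2.

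**Figure D5:**
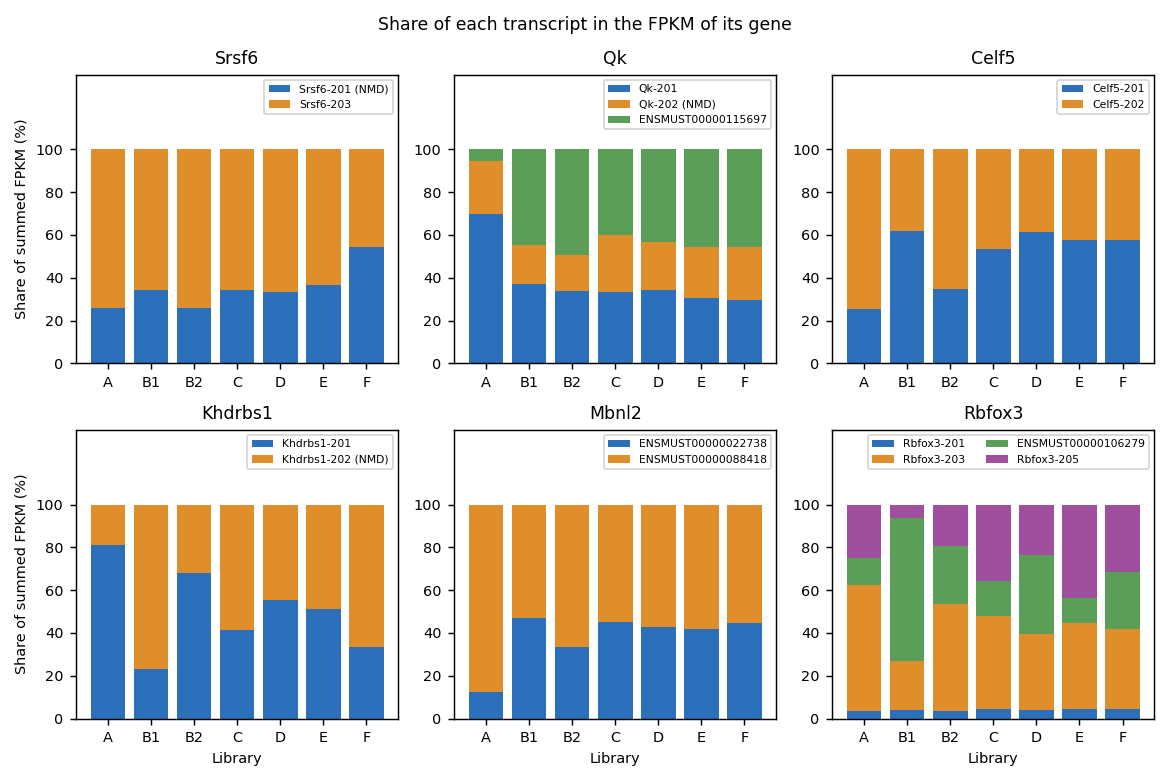
Share (y axis, %) of each listed transcript in the summed FPKM of its gene, stacked, for 6 members in the 7 libraries (x axis); NMD marks transcripts annotated as targets of nonsense-mediated decay. In Srsf6 the NMD form is above 50% in F alone, in Qk the composition of A differs from that of the other 6 libraries, and in Celf5, Khdrbs1 and Rbfox3 B1 and B2 differ about as much as any segments do.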

How the data were processed

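Per the labels and the study's methods, poly(A) RNA was sequenced as paired ends, mapped to mm9 with TopHat 1.0.13 and quantified against Ensembl release 57 with Cufflinks 0.8.3. The FPKM that the authors deposited per gene and transcript carry 95% intervals without variation between mice, and transcripts under 5% of the main form are not listed. Deposited coverage (a signal) together with FPKM gave the depth, and the deposited transcript fraction was not used in any result. Absent genes were set to 0 and duplicates summed. The members and lists were chosen with earlier results of these data known. Trends were fitted with limma 3.58.1 in R 4.3.3 (4 residual degrees of freedom) on log2 values made from the deposited FPKM, with Benjamini-Hochberg adjustment over all genes tested, after a test on simulated data. Only B had replicates, so p-values rest on the spread of single libraries around a smooth trend and of B1 and B2. Values in all libraries are given for members with a called trend, a 2-fold segment range or a 1.5-fold replicate difference (mean of at least 1 FPKM), and transcripts for the 8 members with the largest change of a share among those with at least 2 classifiable transcripts. Copies were sought with blastn 2.17.0. Genes whose transcripts did not sum to the gene within 1% (Ptbp1, Mbnl1, Srsf2 and Srsf5 among the members) were left out of the isoform counts. Symbols, GC content and sequences came from GENCODE M21 (GRCm38), by identifier, and mm9 positions were not converted.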

Additional observations from a re-analysis of the deposited data

How the results depend on the processing

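With an interval limit of 25%, 21 members were tested, and 9 of the 14 members with a trend were called. The others of the 14 (Rbfox3, Elavl4, Ptbp1, Srsf7 and Tial1) were not tested at this limit, so that no tested member lost its call. Of the 14, 7 were called with a linear term only and 3 without segment A. In limma with 6 free segments, which leaves 1 residual degree of freedom, 0 were called (3 at an unadjusted p under 0.05). Beside 26 further splicing genes with a trend, 17 were called with an interval limit of 25%, at which 42 of the 67 were tested. The number called was 17 by median of ratios, 17 when scaled without mitochondrial genes, 16 with GC content removed and 12 with a linear term only. It was 17 without segment F, 5 without segment A and 0 with 6 free segments (7 at an unadjusted p under 0.05). Leaving out B1 gave 17 members and 36 further genes (background 57.9%), and leaving out B2 gave 14 and 22 (background 36.9%). With intervals 2 times as wide, 11 members were apart between B1 and B2 and 9 had opposed isoforms. Opposed isoforms were found in 24 of 27 members when all listed transcripts were used, in 11 to 12 without B1 or B2, and in 18 of 19 when members whose transcripts do not sum to the gene were kept, an alternative chosen after seeing the data. No share over all genes was taken for these counts of apart members and opposed isoforms. They are therefore not read as a result about the members. The median share in E and F of neuron-enriched members was 28.9% by median of ratios and 30.5% without mitochondrial genes (31.9% to 34.2% without B1 or B2). That of the broad factors was 37.4% and 38.4% (39.8% to 40.2% without B1 or B2), 35.6% with GC content removed and 40.3% with an interval limit of 25%. For all genes it was 33.2% by median of ratios, 34.4% without mitochondrial genes and 32.9% with GC content removed. For Qk it was 46.8%, 47.7% and 43.8% under these, and for Ptbp1 40.7%, 42.3% and 41.6%, against 49.9% to 50.5% and 44.1% to 45.5% without B1 or B2. Among the 20 members tested whose values are given in full, slopes that changed sign were those of Elavl3 without segment A (0.0060), Elavl4 and Srsf1 with GC content removed (-0.032 and -0.023), and the slope of Srsf5, which was not called, by median of ratios (-0.064), without mitochondrial genes (-0.026), with GC content removed (-0.17), with B1 and B2 averaged (-0.028), without segment F (-0.0094) and without B1 or B2 (-0.049 and -0.0024). The cause was not tested. Of 312 values for these 20 members under the alternatives, 249 kept direction and call, 48 lost the call, 5 gained it and 10 changed sign. No paired analysis was possible because only segment B had replicates.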
